A study of Mus musculus with 11 samples.

Results

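Of the 22180 genes measured through a probe set with a single gene symbol, 4 are described here: Atp6v0d2, Pla2g4c, Lypd8 and Il31ra. They were chosen by their measured fall in mouse stomach with rapamycin alone (the vehicle and rapamycin arrays), so that fall describes them and is not evidence about them. All 4 were found, each through 1 probe set. In the fit of rapamycin against vehicle, limma called 9 genes lower (0.0406% of genes tested), and these 4 were among the 9. The others were the sialyltransferase gene St3gal4, the mast cell protease genes Mcpt1, Mcpt2 and Tpsb2, and Mcpt-ps1, whose symbol marks a mast cell protease pseudogene. In the order of that fit, Lypd8 (-1.25) was the last gene called, and Reg3g (-2.19) and Chil5 (-1.41) were the next genes not called.

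The study profiled stomachs of adult C57Bl/6 mice on Affymetrix arrays, and all injections were daily and into the peritoneum. The vehicle group received sunflower oil (2 arrays). The tamoxifen group received tamoxifen at 5 mg per 20 g of mouse for 3 days (2 arrays), and the rapamycin group received rapamycin at 0.6 mg per 20 g of mouse for 10 days (3 arrays). The combined group received both drugs at those doses and durations (2 arrays). A further array held parietal cells isolated from C57Bl/6 stomach and another held stomach cells from which the parietal cells had been removed. The labels speak of biological replicates but do not say whether each array is 1 mouse or which solvent carried the rapamycin. P-values measure the spread between these arrays.

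Tamoxifen binds oestrogen receptors and at high dose injures the gastric epithelium, with loss of acid-secreting parietal cells. Rapamycin inhibits mTORC1, the kinase complex that couples nutrients and growth signals to protein synthesis. The 4 genes do not form a known pathway. Atp6v0d2 encodes the d2 form of a subunit of the vacuolar proton pump, which acidifies lysosomes and other compartments; this form is known from osteoclasts, macrophages and some epithelia, while the d1 form is widespread. Pla2g4c encodes a group IV phospholipase A2, an enzyme that releases fatty acids from membrane lipids. Lypd8 encodes a surface protein of the Ly6/PLAUR family that, in the colon, keeps flagellated bacteria away from the epithelium. Il31ra encodes the specific receptor chain for the cytokine IL-31, which signals together with the oncostatin M receptor chain.

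All values are log2 expression, so a difference of 1 is a 2-fold change. Array medians ran from 4.95 to 5.09 in whole stomach. The arrays of the 2 cell fractions had medians of 3.67 and 3.68 and were compared only with each other. The mean of 13 parietal cell markers ran from 10.05 to 10.42 in vehicle and rapamycin arrays and from 8.88 to 9.22 in tamoxifen and combined arrays. It was 8.87 in the parietal cells and 5.32 in the other cells. Markers of the squamous forestomach, another part of the mouse stomach, set arrays of the same group apart. Averaged over 10 genes they read 4.78 and 4.30 with vehicle, 9.86 and 4.26 with tamoxifen, 9.89, 8.56 and 5.00 with rapamycin, and 9.07 and 9.45 with both drugs.

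Atp6v0d2 was the gene of the 4 with the deepest fall. It read 8.0 and 8.92 with vehicle, 4.21, 3.7 and 3.59 with rapamycin, 8.71 and 8.08 with tamoxifen and 7.46 and 7.42 with both drugs. The rapamycin arrays lay far below all others, with a gap of 3.79 between the lowest vehicle array and the highest rapamycin array. The difference between rapamycin and vehicle was -4.63 ± 0.30 (limma standard error), or 24.8-fold. The rapamycin readings were dim, at percentiles 24.8, 17.6 and 15.3 of the genes on their arrays, so this fold, and the differences measured from these readings, rest on values near the low end of the arrays. Rapamycin 3, with a squamous mean of 5.00, had the lowest Atp6v0d2 value; the part of squamous tissue was not tested. In whole tissue, fewer cells of a type and less RNA per cell cannot be told apart.

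Pla2g4c fell with rapamycin too, and it also stood lower with tamoxifen. It read 9.26 and 10.01 with vehicle, 8.29 and 8.49 with tamoxifen, 6.16, 6.26 and 6.11 with rapamycin and 7.78 and 7.07 with both drugs. No groups overlapped, and the order from high to low was vehicle, tamoxifen, combined and rapamycin. The gene had been picked for the distance between vehicle and rapamycin. The share of all genes with no overlap between groups was not computed. The difference between rapamycin and vehicle was -3.46 ± 0.26, or 11-fold, and that between tamoxifen and vehicle was -1.24 ± 0.28, which was not tested because the vehicle arrays had served to pick the gene.

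Lypd8 read 12.64 and 12.34 with vehicle and 11.19, 11.25 and 11.26 with rapamycin. It read 12.82 and 13.19 with tamoxifen and 12.58 and 12.48 with both drugs. The rapamycin arrays lay close together and below all others, and the combined arrays were within the range of the vehicle arrays. The difference between rapamycin and vehicle was -1.25 ± 0.15, or 2.38-fold.

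Il31ra was low with either drug and with both. It read 5.86 and 5.97 with vehicle, 4.69 and 4.78 with tamoxifen, 4.94, 4.81 and 4.79 with rapamycin and 4.49 and 4.35 with both drugs. Vehicle was the high group, and the 3 treated groups lay close together, with the combined arrays lowest. The difference from vehicle was -1.07 ± 0.12 with rapamycin, -1.18 ± 0.13 with tamoxifen and -1.49 ± 0.13 with both. Its treated values lay below the whole-stomach array medians, so it was read near the dim end of the arrays.

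**Figure D1:**
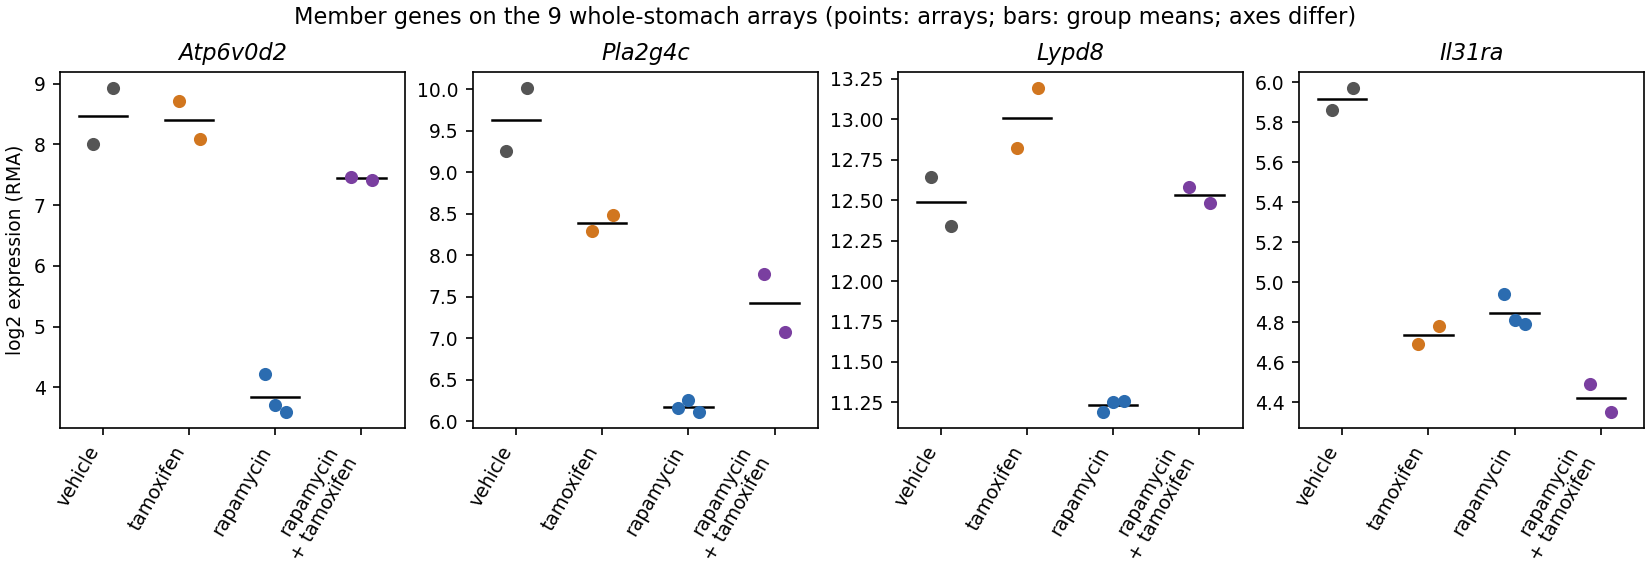
Log2 expression of the 4 genes (vertical axes, which differ between panels) on the 9 whole-stomach arrays, by treatment group (horizontal axis); points are arrays and bars are group means. Atp6v0d2 is between 3.59 and 4.21 in the rapamycin arrays and at 7.42 or above in all others, while Il31ra is high only in the vehicle arrays.

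Promoter windows show what DNA lies at annotated starts within the genes that were low together on the rapamycin arrays. Windows of 300 bases (250 before and 50 after an annotated start; RefSeq, GRCm38.p6) were listed for 3 of the genes, 2 each for Lypd8 and Pla2g4c and 1 for Il31ra. They were searched on both strands for 8 short motifs. These were CACGTG (core of the CLEAR element of lysosomal genes), TGANTCA (bound by AP-1), TTCNNNGAA (bound by STAT factors), TATAAA (the core promoter box of that name), CCAAT (bound by NF-Y), GGGCGG (bound by Sp1), GATAAG (bound by GATA factors) and TTTATNG (bound by CDX factors). Capitals mark the matches, and no matches overlapped. The first window of each gene is printed 5′ to 3′ on the gene's own strand. Both Pla2g4c windows and the second Lypd8 window lie inside the gene, downstream of its first annotated base. That base is chr7:13311507 for Pla2g4c and chr11:58379032 for Lypd8.
Lypd8, chr11:58378782-58379081, plus strand: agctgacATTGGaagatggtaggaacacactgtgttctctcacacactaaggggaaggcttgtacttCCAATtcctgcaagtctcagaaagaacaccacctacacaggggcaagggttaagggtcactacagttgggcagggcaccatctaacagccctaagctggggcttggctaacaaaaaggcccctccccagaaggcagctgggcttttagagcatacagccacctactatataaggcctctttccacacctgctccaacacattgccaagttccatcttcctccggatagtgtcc
Pla2g4c, chr7:13325417-13325716, plus strand: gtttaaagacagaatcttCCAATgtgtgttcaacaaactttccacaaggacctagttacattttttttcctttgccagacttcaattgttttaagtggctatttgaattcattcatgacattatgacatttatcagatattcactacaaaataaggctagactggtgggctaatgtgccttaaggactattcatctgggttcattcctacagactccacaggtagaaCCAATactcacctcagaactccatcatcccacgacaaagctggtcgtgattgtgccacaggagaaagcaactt
Il31ra, chr13:112580613-112580912, minus strand: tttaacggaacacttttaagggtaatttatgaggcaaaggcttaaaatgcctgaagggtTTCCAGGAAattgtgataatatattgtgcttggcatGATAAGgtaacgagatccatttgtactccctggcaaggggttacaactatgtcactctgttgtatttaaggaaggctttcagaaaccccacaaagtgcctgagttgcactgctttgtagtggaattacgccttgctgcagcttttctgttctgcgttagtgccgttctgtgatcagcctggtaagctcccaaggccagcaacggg

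The printed Lypd8 and Pla2g4c windows each held 2 matches to CCAAT or its reverse complement, a motif present in 37.4% of all 32851 windows of this length. The second Lypd8 window held 1 such match, and the second Pla2g4c window held no match to any of the 8 motifs. The Il31ra window held 1 match to the STAT motif at base 60, found in 8.3% of all windows, and 1 to the GATA motif at base 96, found in 7.4%. The CLEAR core, present in 7.2% of windows, was in none of the 5 windows searched. No window was listed for Atp6v0d2, the proton pump gene, so its promoter was not searched. A match describes the letters only, and binding was not measured here.

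Tamoxifen given with rapamycin was accompanied by higher values of 3 of the 4 genes than rapamycin alone. Atp6v0d2 was higher by 3.61 ± 0.30, a 12.2-fold difference that made up 78.0% of its fall on the log2 scale. Lypd8 was higher by 1.30 ± 0.15, or 103.6% of its fall, and Pla2g4c by 1.25 ± 0.26, or 36.2% of its fall. In these 3 genes each combined array lay above every rapamycin array, with gaps of 3.22, 1.22 and 0.81. The share of all genes separated in this way was not computed, so the count of 3 cannot be judged against it. Il31ra did not regain its level: the difference was -0.42 ± 0.12, and both combined arrays lay below all rapamycin arrays. The rapamycin arrays had served to pick the genes as low, which favours higher values elsewhere, so these differences were not tested.

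The difference for Pla2g4c depended most on single arrays: it was 0.89 without combined 1 and 1.61 without combined 2. For Atp6v0d2 it ran from 3.49 to 3.8 and for Lypd8 from 1.25 to 1.35 when any 1 of the 9 arrays was left out. Compared with vehicle, the combined arrays differed by -1.02 ± 0.33 for Atp6v0d2, -2.21 ± 0.28 for Pla2g4c and 0.05 ± 0.17 for Lypd8. The Atp6v0d2 difference was -1.48 without vehicle 1 and -0.56 without vehicle 2. Comparisons with vehicle share its arrays with the choice of the genes and were not tested either.

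**Figure D2:**
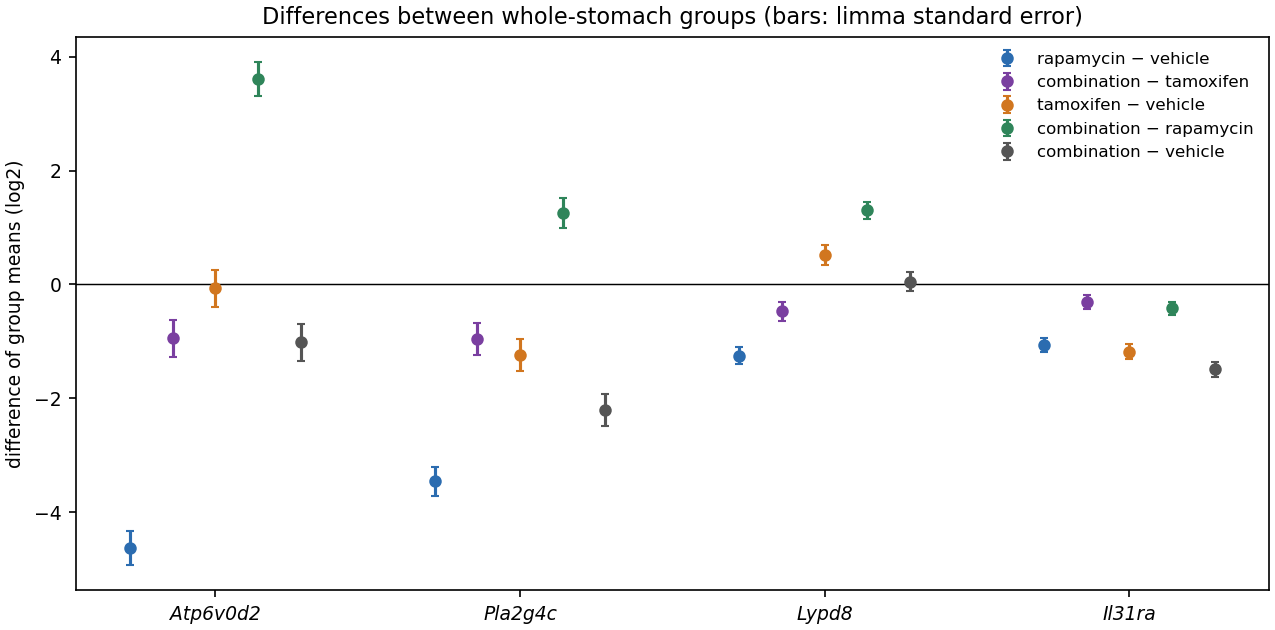
Difference of group means on the log2 scale (vertical axis) for each of the 4 genes (horizontal axis) in 5 comparisons of whole-stomach groups; points are estimates and bars are limma standard errors. Combined minus rapamycin is 3.61 for Atp6v0d2 and below 0 only for Il31ra, while combined minus tamoxifen is between -0.96 and -0.31 for the 4 genes.

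The combined group against tamoxifen asks whether rapamycin lowers these genes in the injured stomach, on arrays whose group means did not enter the contrast that chose them. The spread, though, was shared over all 9 arrays, so the errors, intervals and p-values of this fit reuse residuals that took part in the choice. All 4 genes were lower on average: Pla2g4c by -0.96 ± 0.28 (95% interval -1.60 to -0.33), Atp6v0d2 by -0.95 ± 0.33 (-1.71 to -0.20), Lypd8 by -0.47 ± 0.17 (-0.85 to -0.09) and Il31ra by -0.31 ± 0.13 (-0.62 to -0.01). None passed over all genes, each with an adjusted p of 0.814 (limma, Benjamini-Hochberg over 22180 genes), and the unadjusted limma p ran from 0.00748 for Pla2g4c to 0.0447 for Il31ra. Limma called 0 genes in this comparison (0% of genes tested), with 1257 at an unadjusted p under 0.05. Fitted on these 4 arrays alone, with no vehicle or rapamycin array, the 95% intervals were -1.54 to -0.37 for Atp6v0d2, -1.61 to -0.32 for Pla2g4c, -0.94 to -0.01 for Lypd8 and -0.71 to 0.08 for Il31ra, with an adjusted limma p of 0.871 each and 0 genes called (1014 at an unadjusted p under 0.05). In simulated data of the same shape as the fit on 9 arrays, 200 genes were lowered at once, by 1 or by 2. Limma found 40.5% of them at a difference of 1 and 91.5% at a difference of 2. All 4 measured differences were smaller than 1, so these rates do not describe the power for them.

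Both combined arrays lay below both tamoxifen arrays in 4 of 4 genes, against 20.3% of all genes. The gaps between the lower tamoxifen array and the higher combined array were 0.62 for Atp6v0d2, 0.50 for Pla2g4c, 0.24 for Lypd8 and 0.20 for Il31ra. Ranked from the most negative difference, Pla2g4c was number 35 and Atp6v0d2 number 37 of the 22180 genes, Lypd8 number 812 and Il31ra number 2438. The exact two-sided permutation test gave p = 0.333 for each gene, the smallest value that 2 arrays against 2 allow. The median over the 4 genes was -0.71, beside -0.02 over all genes.

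The squamous mean differed between these arrays, at 9.86 and 4.26 with tamoxifen and 9.07 and 9.45 with both drugs. With that mean as a covariate the differences were -1.18 for Atp6v0d2, -0.91 for Pla2g4c, -0.39 for Lypd8 and -0.32 for Il31ra. Atp6v0d2 was -0.64 without tamoxifen 1 and -1.27 without tamoxifen 2, and Lypd8 was -0.66 and -0.29. Pla2g4c was -1.32 without combined 1 and -0.61 without combined 2.

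In the separated cells, Atp6v0d2 and Lypd8 stood lower in the parietal cells than in the other cells. Atp6v0d2 read 1.83 in parietal cells and 5.08 in the other cells, a difference of -3.25. Lypd8 read 6.95 and 10.58, a difference of -3.63. Pla2g4c read 3.40 and 4.2 (-0.79), and Il31ra read 2.81 and 2.75 (0.06). Of all genes, 6.46% were at least 1 log2 unit lower in the parietal cells and 2.05% at least 2 units lower. Atp6v0d2 and Lypd8 were in both sets. With 1 array for each fraction there was no test. Readings of Atp6v0d2, Pla2g4c and Il31ra in the parietal cells were below that array's median of 3.67. Il31ra was also below the median of 3.68 in the other cells, so both of its readings were dim.

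**Figure D3:**
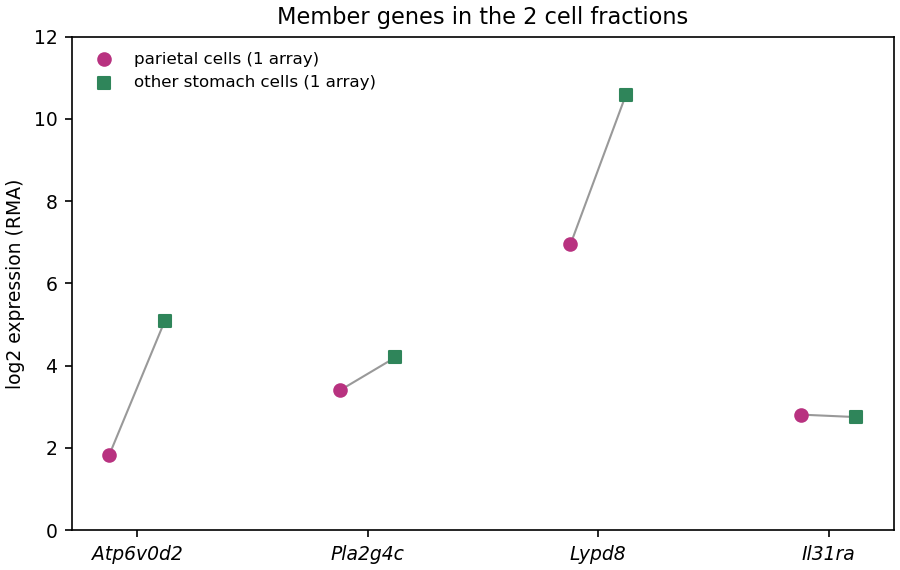
Log2 expression (vertical axis) of the 4 genes (horizontal axis) in isolated parietal cells (circles) and in the other stomach cells (squares), 1 array each; grey lines join the 2 values of a gene. Atp6v0d2 and Lypd8 are lower in parietal cells by 3.25 and 3.63. The Il31ra values nearly coincide, and each is below the median of its array.

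No other measured gene of the vacuolar proton pump was called with rapamycin, the comparison on which Atp6v0d2 had been picked. Atp6v0c, another subunit gene, had no probe set with a single symbol and was not used. Of 10 further membrane-sector and accessory genes, limma called 0 with rapamycin (1 at an unadjusted p under 0.05), and their differences ran from -0.31 to 0.49. Of 13 catalytic-sector genes it called 0 as well (1 at an unadjusted p under 0.05), with differences from -0.59 to 0.68. Across all genes 0.0496% were called in this comparison, 0.0406% lower and 0.00902% higher, and 8.91% reached an unadjusted p under 0.05. Medians of both lists were 0.03 and 0.00, beside -0.02 for all genes.

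Atp6v0d1, the widespread form of the same subunit, read 9.10 and 9.49 with vehicle and 9.25, 9.11 and 9.11 with rapamycin. These groups overlapped, with a difference of -0.14 ± 0.15 (limma adjusted p = 0.758). Tcirg1, the a3 subunit that partners with d2 in osteoclasts, differed by -0.31 ± 0.16, and Atp6v1b2, a catalytic-sector subunit, by -0.04 ± 0.15. In the combined group against tamoxifen limma called 0 of the 23 genes, with Atp6v0d1 at -0.32 ± 0.17. At an unadjusted p under 0.05 there were 2, beside 5.67% of all genes.

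**Figure D4:**
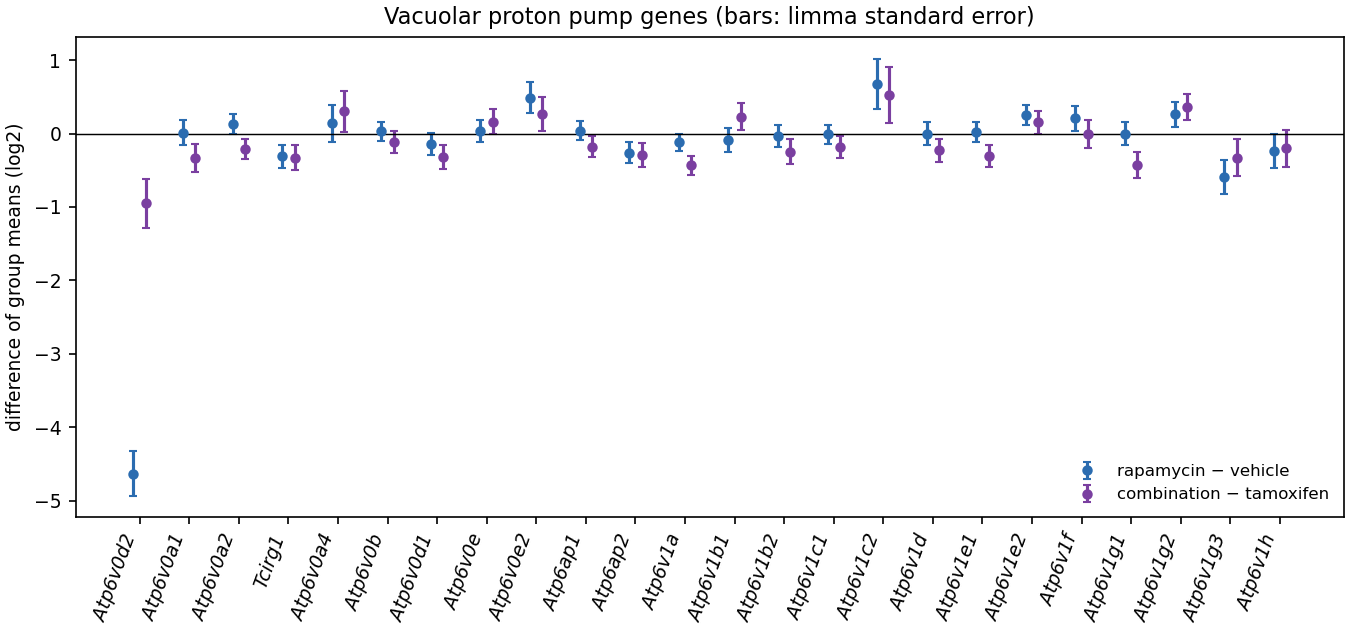
Difference of group means on the log2 scale (vertical axis) for Atp6v0d2 and 23 other genes of the vacuolar proton pump (horizontal axis), for rapamycin minus vehicle (blue) and combined minus tamoxifen (purple), with limma standard errors as bars. With rapamycin alone Atp6v0d2 is at -4.63 and the other 23 genes lie between -0.59 and 0.68.

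Genes of cells and pathways in which Atp6v0d2 is known were tested next. Of 12 osteoclast and multinucleated macrophage genes, limma called 0 with rapamycin (median -0.10). At an unadjusted p under 0.05 there were 2, 1 lower and 1 higher, beside 8.91% of all genes. Differences over the list ran from -0.75 to 0.58. Acp5, an acid phosphatase gene, was the lowest of them, at -0.75 ± 0.23. In the combined group against rapamycin the list ran from -0.28 to 0.47, with 0 at an unadjusted p under 0.05. Acp5 was the highest there, at 0.47 ± 0.23. Of 16 macrophage and dendritic cell markers limma called 0 with rapamycin and 0 reached an unadjusted p under 0.05 (median -0.01). The mean of those markers ran from 6.45 to 6.57 in the vehicle and rapamycin arrays. Of 22 lysosome and TFEB target genes limma called 0 (1 at an unadjusted p under 0.05; median -0.09), and of 22 genes of mTORC1 components 0 (0 at an unadjusted p under 0.05; median -0.08). Gabarapl1, an autophagy gene of the lysosome list, fell with tamoxifen (-0.97 ± 0.19, limma adjusted p = 0.0445) and was lower in the combined group than with rapamycin (-1.26 ± 0.17, limma adjusted p = 0.00809). Ctsl, a lysosomal protease gene, rose with tamoxifen (0.78 ± 0.15, limma adjusted p = 0.0445). Of the macrophage markers, Lyz2 rose with tamoxifen (1.33 ± 0.27, limma adjusted p = 0.0499) and Cd14 rose in the combined group against rapamycin (0.89 ± 0.17, limma adjusted p = 0.0327). The mean of the macrophage markers was 6.75 and 7.21 with tamoxifen and 6.64 and 6.75 with both drugs. With tamoxifen 7 of the 16 reached an unadjusted limma p under 0.05, all higher, beside 10.9% of all genes in either direction. In the combined group against rapamycin 4 did, all higher, beside 13.9%. The part of these cells in the Atp6v0d2 values was not tested.

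Relatives of Pla2g4c gave no call. Of 4 other group IV phospholipase A2 genes limma called 0 with rapamycin (1 at an unadjusted p under 0.05). Pla2g4a, the best known arachidonate-releasing form, stood at -0.71 ± 0.18 (limma adjusted p = 0.333) and at 0.39 ± 0.18 in the combined group against rapamycin. Pla2g4d, Pla2g4e and Pla2g4f stood at 0.84 ± 0.46, 0.41 ± 0.53 and 1.09 ± 0.62. These 3 genes were higher in tamoxifen 1 than in tamoxifen 2, as was the squamous mean. Of 14 arachidonate and prostaglandin genes limma called 0 with rapamycin (4 at an unadjusted p under 0.05, 3 lower and 1 higher). Their median was -0.16, and of all genes 8.91% reached that p.

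Among 18 other Ly6/PLAUR family genes limma called 0 with rapamycin (2 at an unadjusted p under 0.05, all higher). Their median was 0.17, and of all genes 8.91% reached that p. Plaur, the urokinase receptor gene, stood at 0.15 ± 0.30, Lypd6 at 0.01 ± 0.17 and Psca, a gene of surface mucous cells, at -0.02 ± 0.11. The largest differences were those of Lypd5 (2.84 ± 1.30), Ly6g6c (2.39 ± 0.85) and Lypd3 (2.38 ± 1.13), which were higher in rapamycin 1 and 2 than in rapamycin 3, like the squamous mean; the part of squamous tissue was not tested. Cd59a, a complement inhibitor gene, fell with tamoxifen (-1.09 ± 0.21, limma adjusted p = 0.0408; 1.72% of genes called, 0.784% lower and 0.933% higher). Slurp1, a secreted relative, rose in the combined group against vehicle (2.67 ± 0.48, limma adjusted p = 0.0391; 1.15% of genes called, 0.735% lower and 0.41% higher). The squamous markers stood higher in that comparison too, by a median of 4.90, and Slurp1 read 9.65 and 7.94 in tamoxifen 1 and 2, where the squamous mean was 9.86 and 4.26.

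Partners of Il31ra showed no call in any of the 5 comparisons. Osmr, the second receptor chain, stood at 0.21 ± 0.23 with rapamycin and at 0.74 ± 0.25 with tamoxifen. Il31, the ligand gene, read from 3.21 to 3.5 in all 9 arrays. Il6st, the shared signalling chain of this cytokine family, stood at 0.10 ± 0.16 with rapamycin. Of 16 genes of IL-31 and oncostatin signalling, 1 reached an unadjusted limma p under 0.05 with rapamycin and 1 with tamoxifen. The medians were -0.10 and 0.04. Of all genes, 8.91% reached that p with rapamycin and 10.9% with tamoxifen.

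Genes that guard the epithelium against microbes, the function known for Lypd8, gave no call with rapamycin alone. Limma called 0 of 17 such genes, and 7 reached an unadjusted p under 0.05, all lower (median -0.43), beside 8.91% of all genes at that p in either direction. Saa3, an acute-phase gene of this list, rose with tamoxifen (1.83 ± 0.35, limma adjusted p = 0.0401). Pigr, which carries immunoglobulin A to the lumen, read 8.08 and 9.53 with vehicle, 6.94, 6.27 and 6.18 with rapamycin and 8.23 and 8.21 with both drugs. Reg3g, an antibacterial lectin gene, read 5.84 and 5.07 with vehicle, 3.12, 3.03 and 3.64 with rapamycin and 5.13 and 5.20 with both.

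In both genes the rapamycin arrays lay below all others, and the combined arrays lay within the vehicle range. The share of all genes with this pattern was not computed. The rapamycin difference was -2.34 ± 0.38 for Pigr (limma adjusted p = 0.146) and -2.19 ± 0.32 for Reg3g (limma adjusted p = 0.0946). In the combined group against rapamycin Reg3g rose by 1.91 ± 0.32 (limma adjusted p = 0.0181; 2.45% of genes called, 1.32% lower and 1.13% higher), and Pigr stood at 1.76 ± 0.38 (limma adjusted p = 0.0507). Duox2, an epithelial oxidase gene, stood at -2.44 ± 0.40 with rapamycin (limma adjusted p = 0.147). It stood at -1.19 ± 0.44 in the combined group against tamoxifen (limma adjusted p = 0.814).

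The profile most like that of each gene was sought among the 1082 other genes whose group means spanned at least 1 log2 unit, by Pearson's r over the 9 whole-stomach arrays. The arrays share treatment groups, and they include the vehicle and rapamycin arrays on which the described genes were picked. These r therefore describe likeness only. Atp6v0d2 and Lypd8 were both picked for their fall with rapamycin, which favours a high r between them. For Atp6v0d2 the closest genes were Pigr (r = 0.963), Reg3g (0.932), Lypd8 (0.921), G2e3 (0.915) and Cenpa (0.898), a centromere histone gene. The genes closest to Lypd8 were Kif20b (0.965), G2e3 (0.962), Cenpa (0.956), Kif15 (0.953) and Cenpe (0.951). Kif15, Kif20b and Cenpe encode motor proteins of dividing cells. Kif20b was at -0.78 with rapamycin and at 1.07 in the combined group against rapamycin.

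Pla2g4c was closest to Duox2 (r = 0.943) and to 3 mast cell protease genes, Tpsb2 (0.935), Mcpt2 (0.926) and Cma1 (0.922), with St3gal4 at 0.924. Tpsb2, Mcpt2 and St3gal4 were called lower with rapamycin in the same fit as Pla2g4c, which favours a high r with it. Duox2 and Cma1 were not called there. Of 15 sialyl- and sulfotransferase genes, limma called St3gal4 lower (-2.73 ± 0.18, adjusted p = 0.00132) and Chst4 higher (2.21 ± 0.21, adjusted p = 0.0144) with rapamycin, and St3gal1 lower with tamoxifen (-1.45 ± 0.15, adjusted p = 0.0065). Of 11 mast cell markers, limma called 3 lower with rapamycin, Mcpt1, Mcpt2 and Tpsb2, and 0 higher, beside 0.0406% of all genes called lower. The other 8 did not pass, and differences over the list ran from -4.46 to 0.48 (median -1.22). Kit, the stem cell factor receptor gene, stood at 0.25 ± 0.18 with rapamycin and fell with tamoxifen (-1.34 ± 0.20, limma adjusted p = 0.0169). The mean of that list was 6.93 and 7.28 in the vehicle arrays and ran from 5.70 to 5.83 in the rapamycin arrays, from 5.78 to 6.30 with tamoxifen and from 5.86 to 5.91 with both. It was 3.38 in the parietal cells and 7.40 in the other cells. Mcpt1, a mast cell protease gene, differed between those 2 arrays by -7.27, whereas Pla2g4c differed by -0.79. The part of mast cells in the Pla2g4c values was not tested.

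Il31ra had its closest profiles in Acer1 (r = 0.949), a ceramidase gene, Olfr803 (0.943), Chil5 (0.912), Tmed6 (0.908) and Fkbp11 (0.902). Like Il31ra, Tmed6, a secretory pathway gene, was highest with vehicle, at 10.04 and 10.05, lower with rapamycin, at 8.70, 8.82 and 9.24, and lower again with both drugs, at 7.60 and 7.43. Its combined arrays lay below its tamoxifen arrays, at 7.80 and 8.06.

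**Figure D5:**
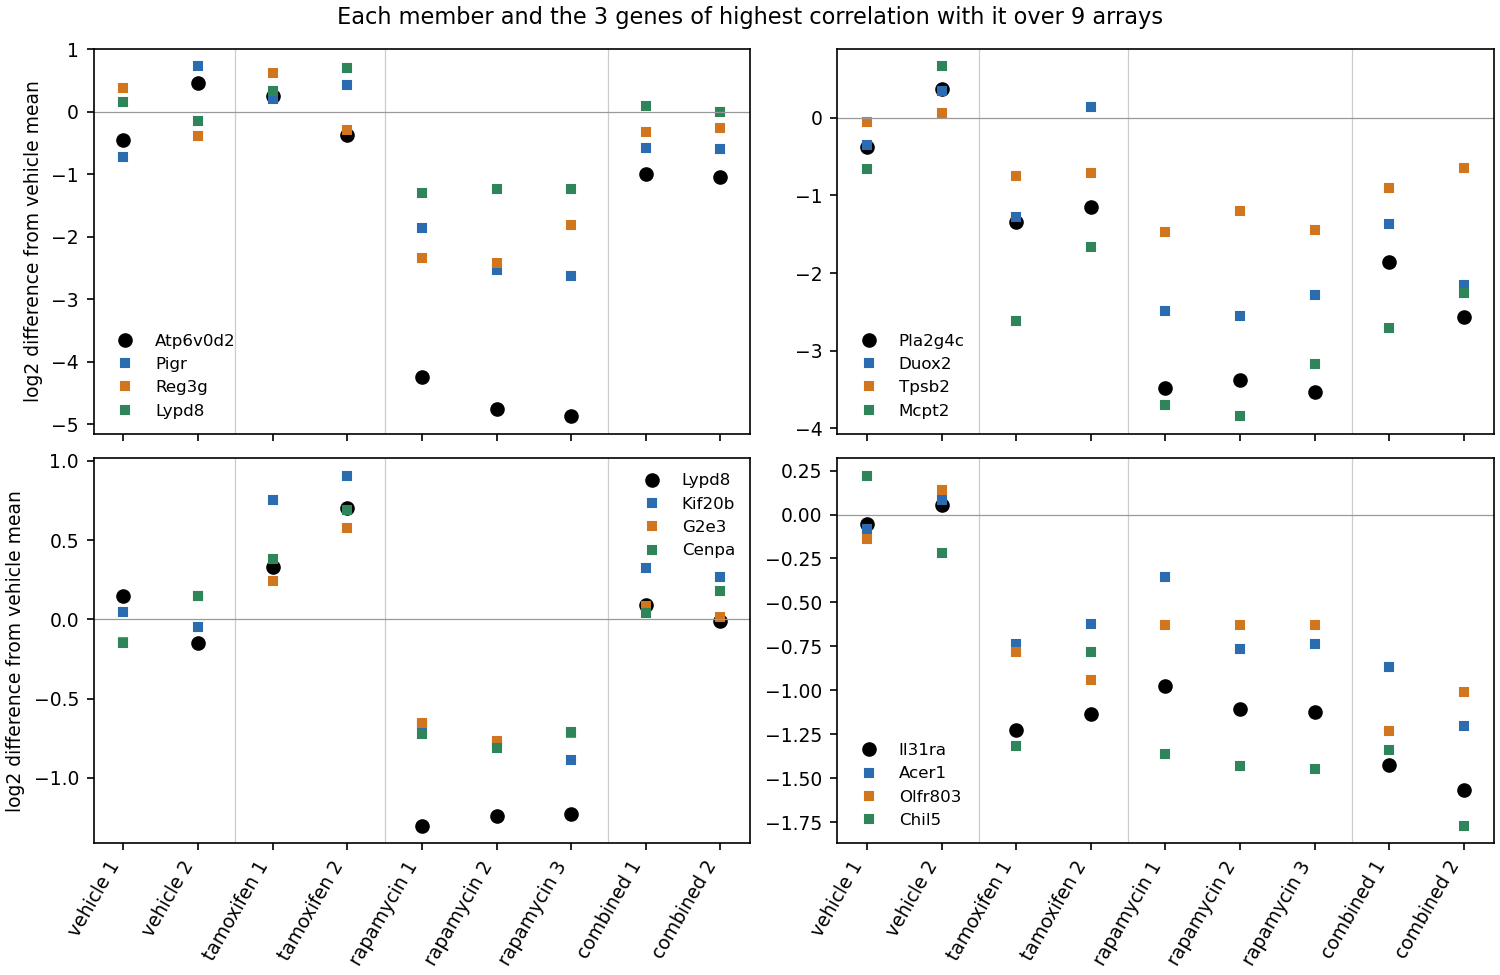
Log2 difference from the mean of the 2 vehicle arrays (vertical axes, which differ between panels) on each of the 9 whole-stomach arrays (horizontal axis) for each of the 4 genes (black circles) and the 3 genes whose values correlated best with it (coloured squares); grey lines separate the groups. Pigr and Reg3g are low in the same 3 rapamycin arrays as Atp6v0d2, and the genes nearest to Il31ra are low in all treated arrays. Lypd8 is low in those rapamycin arrays too, but it and Atp6v0d2 were both picked for that fall.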

How the data were processed

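Total RNA was amplified, labelled with biotin and hybridised to Affymetrix arrays, per the labels' protocols. The authors deposited log2 values; RMA and Partek are named in the submitters' processing notes, with no version, setting or build. Of 41345 probe sets, 23521 had 1 gene symbol in the platform's table, 1814 had several and 16010 were not listed with a gene. A gene with several probe sets was read from that with the highest mean in whole stomach. By gene ID 23328 probe sets matched the RefSeq table (GRCm38.p6), used for names.

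Means of the 4 groups were modelled by limma 3.58.1 (R 4.3.3) with 1 shared spread (5 residual degrees of freedom, prior 3.86), tested on simulated data, with calls at p under 0.05 after Benjamini-Hochberg adjustment over 22180 genes. Errors after ± are limma standard errors. The members and lists, the rule for named genes and the motifs were chosen with earlier results of these data known. Named were all members, their paralogs and partners, up to 3 of the largest called changes of each related list, and the 5 genes most correlated with each member. Of the cell type lists, means are given for parietal, squamous, mast cell and macrophage markers. Lists of other stomach cell types were measured but are not described here. Acp5, Lypd3, Lypd5, Ly6g6c, Pla2g4d, Pla2g4e, Pigr, Duox2, Kif20b and Tmed6 values, and the fit on 4 arrays set beside the test, were singled out after being seen. List genes without a single-symbol probe set were not used here. Alternatives were other normalization, filters, probe sets, samples, variance models, a squamous covariate, a replicate block and leaving out each array. The number of arrays limits the precision.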

Additional observations from a re-analysis of the deposited data

Results flagged for a closer look

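In 6 of the genes named in the text, all tamoxifen arrays lay on the same side of the vehicle arrays. For the same genes, all combined arrays lay on the opposite side of the rapamycin arrays. The share of all genes with this pattern was not computed. Pla2g4c, Mcpt1, Mcpt2 and Tpsb2 had been called lower on the rapamycin arrays, which favours higher values elsewhere. Cma1 was separated only narrowly, at 6.25 in tamoxifen 2 and 6.26 in vehicle 1. Pla2g4c stood at -1.24 against vehicle and at 1.25 against rapamycin. Its difference of effects was not tested, because the gene was picked on the vehicle and rapamycin arrays. Mcpt1 stood at -2.92 and 1.17 (limma interaction 4.08 ± 0.58, adjusted p = 0.492). Of the other mast cell genes, Mcpt2 stood at -2.14 and 1.08 (limma interaction adjusted p = 1), Tpsb2 at -0.74 and 0.60 (adjusted p = 0.592) and Cma1 at -0.71 and 0.32 (adjusted p = 1). Chst4 went the other way, at 0.55 and -1.06 (adjusted p = 1). For rapamycin, St3gal1 stood at -0.72 without tamoxifen and at 0.22 with it, again with no overlap between groups (limma interaction adjusted p = 1). Over all 22180 genes limma called 0 for the interaction, with 627 at an unadjusted p under 0.05. No group held 4 arrays, so no array was checked as an outlier.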

How the results depend on the processing

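For the combined group against tamoxifen, the 4 genes kept their negative direction under quantile normalization, median centring and the squamous covariate. Other settings were a filter on dim genes, averaged or separate probe sets, the 4 arrays alone, and limma with trend and robust. These could not change the differences, because each of the 4 genes has 1 probe set and the group means stay the same. They could change only the spread and the adjusted p. None of the 4 genes was called under any of these settings. Leaving out a vehicle or rapamycin array could not change the differences either. With 1 of 9 arrays left out in turn, the differences ran from -1.27 to -0.64 for Atp6v0d2, -1.32 to -0.61 for Pla2g4c, -0.66 to -0.29 for Lypd8 and -0.39 to -0.24 for Il31ra, with adjusted p from 0.234 to 1. The count of all genes called ran from 0 to 1; it was 1 without tamoxifen 2 or without rapamycin 1. The median of the 4 genes in the combined group against rapamycin ran from 1.07 to 1.48.

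With the replicate block the differences of the 4 genes were -0.95, -0.96, -0.47 and -0.31 (limma adjusted p = 0.737 each), and 0 genes were called. The tamoxifen and combined arrays carry the same replicate numbers, so the block could not change these differences. Deviations of same-numbered arrays correlated at 0.561 between vehicle and tamoxifen, 0.408 between tamoxifen 1 and rapamycin 1, -0.112 between tamoxifen and combined, and from -0.087 to 0.045 in the other pairs. A replicate block with the numbers crossed, chosen after seeing the data, also called 0 genes. Not every pair was above 0.1, and the labels do not say that the numbers pair samples.

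For Atp6v0d2 the difference of tamoxifen from vehicle was -0.53 without vehicle 1 and 0.40 without vehicle 2; its value over all arrays was -0.07. Groups of 2 or 3 arrays limit what could be called.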
